A study of Mus musculus with 2 samples.

Results

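Replication-dependent histone genes encode the proteins on which DNA is wound, and they were examined here by class in total RNA of mouse bone marrow cells. A gene counted as a member if the GENCODE M21 annotation calls it protein coding and its symbol begins with Hist1h, Hist2h, Hist3h or Hist4h. The rule found 67 members, namely 6 H1, 18 H2A, 18 H2B, 12 H3 and 13 H4 genes, against 21461 nuclear protein-coding genes with a row in the tables. A row with the member's gene ID existed for 64 of them. Hist2h2bb was reached only through its transcript, and Hist1h2bm and Hist1h2bh were not analysed here.

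Both libraries carry the label megakaryocyte, the bone marrow cell that sheds platelets, and come from adult male C57BL/6J mice of 5 to 6 weeks as primary cells. The labels number them as biological replicates 1 and 2, give them the same donor entry and name no treatment or second condition, so no contrast between conditions exists. Ribosomal RNA was depleted from 100 ng of total RNA and a ScriptSeq kit was used, per the labels. The size range ran from 221 to 1000 nucleotides for library 1 and from 200 to 1000 for library 2.

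The label was checked against marker genes. Of 12 megakaryocyte markers, 10 were under 1 TPM (a level per transcript length and library total) in both libraries, and their summed level was 9.44 in library 1 and 11.1 TPM in library 2. Gp5 and Gp6 were listed with 0 counts in both, while Pf4, the platelet chemokine that defines the lineage, had 0 counts in library 1 and 3 in library 2. All 8 neutrophil markers and all 5 monocyte markers reached 1 TPM in each library. Their summed levels were 14343 and 13613.5 TPM for neutrophil markers and 7315 and 9639 TPM for monocyte markers, in library 1 and library 2. The histone values below are therefore given for the libraries labelled megakaryocyte, without a cell type of their own.

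Core histones H2A, H2B, H3 and H4 form the nucleosome, and the linker histone H1 binds the DNA that enters and leaves it. The replication-dependent genes lie in clusters, mostly lack introns and are transcribed in S phase, when new DNA has to be packaged. Their mRNAs end in a conserved stem-loop in place of a poly(A) tail. The stem-loop binding protein SLBP holds this element during processing, translation and decay. Because RNA was selected here by removing ribosomal RNA and not by a poly(A) tail, such mRNAs can be counted. In bulk RNA of this kind, fewer cells in S phase and less histone mRNA per cell cannot be told apart.

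The stem-loop is the element that makes these mRNAs a group, and it was searched for after the stop codon of each member's annotated transcript, as a stem of 6 base pairs closed by a loop of 4 bases. A single transcript was taken per member, the protein-coding one of highest mean TPM where it had several. Of these 67 annotated transcripts, 45 held it, at 21 to 58 bases after the stop codon with a median of 31. Hist1h2bp counts as lacking the element, although its other transcript held it at 27 bases. Of the 22 without it, 17 had fewer than 16 bases annotated after the stop codon, which is shorter than the element. The same pattern occurred in 701 of 58797 protein-coding transcripts of the annotation, or 1.19%. The elements below are those of leading members and of some of the rarer of 8 forms, with the 16 bases of stem and loop in capitals and 5 flanking bases on each side.
Hist1h1d: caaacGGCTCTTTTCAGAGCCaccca
Hist2h2aa1: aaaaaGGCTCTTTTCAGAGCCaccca
Hist2h2ac: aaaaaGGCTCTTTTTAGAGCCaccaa
Hist1h2bb: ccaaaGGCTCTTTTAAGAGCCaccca
Hist1h3b: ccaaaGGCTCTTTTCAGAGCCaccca
Hist1h3g: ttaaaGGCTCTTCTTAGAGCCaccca
Hist1h4d: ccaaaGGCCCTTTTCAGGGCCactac
Hist1h4b: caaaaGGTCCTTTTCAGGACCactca
The form shown for Hist1h1d and Hist2h2aa1 was carried by 25 members, none of them an H4 gene. The form shown for Hist1h4d, whose stem differs from it in a single base pair, was carried by 7 members, all of them H4 genes. The form shown for Hist1h2bb was carried by 6, and those shown for Hist2h2ac and Hist1h3g by 1 each.

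Promoter windows from RefSeq (build GRCm38.p6, 250 bases before to 50 after the start) matched 62 members. They were searched on both strands for core elements known from histone promoters. The first is the octamer ATTTGCAT, which binds POU factors such as Oct1. It was found in 13 of 62 windows, or 20.97%, against 1.74% of all 32851 windows in the table. Its holders were 7 H2A and 6 H2B genes, with none among H1, H3 and H4. The second element, with the letters CCAAT, was found in 53 of 62 windows against 37.4% of all windows, and was in every H1, H2A, H2B and H3 window but in only 3 of 12 H4 windows. The third, the letters TATAAA that bind the general transcription machinery, was found in 35 of 62 against 13.6% of all windows. Windows of divergent H2A and H2B genes overlap, so their matches are not independent, and a match is a description of letters only. The windows shown are those of the highest H2A gene, the highest H4 gene and an H2B gene with the octamer, with all matches in capitals, on chr3:96245247-96245546 (plus strand), chr13:23581318-23581617 (plus strand) and chr13:22035571-22035870 (plus strand).
Hist2h2aa1: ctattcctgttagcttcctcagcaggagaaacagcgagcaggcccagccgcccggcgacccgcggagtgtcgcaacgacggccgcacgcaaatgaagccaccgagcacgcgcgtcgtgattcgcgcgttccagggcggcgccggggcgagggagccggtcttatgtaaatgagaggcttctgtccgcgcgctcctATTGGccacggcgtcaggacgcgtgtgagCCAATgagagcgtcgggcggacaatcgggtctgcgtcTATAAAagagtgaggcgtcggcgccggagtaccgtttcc
Hist1h4d: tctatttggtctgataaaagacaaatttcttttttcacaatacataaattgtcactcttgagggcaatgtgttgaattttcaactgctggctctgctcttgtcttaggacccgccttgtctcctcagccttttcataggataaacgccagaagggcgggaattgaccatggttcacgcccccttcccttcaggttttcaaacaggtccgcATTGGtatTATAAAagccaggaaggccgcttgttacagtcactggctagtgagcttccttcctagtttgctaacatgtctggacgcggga
Hist1h2bk: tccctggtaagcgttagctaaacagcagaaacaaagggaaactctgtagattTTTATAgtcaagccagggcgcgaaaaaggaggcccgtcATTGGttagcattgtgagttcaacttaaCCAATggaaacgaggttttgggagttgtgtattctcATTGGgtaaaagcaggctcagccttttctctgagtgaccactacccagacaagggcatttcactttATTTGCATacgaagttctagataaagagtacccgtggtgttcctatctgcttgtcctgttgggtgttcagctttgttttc

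The 64 members with a row summed to 18831 in library 1 and 23840 TPM in library 2, or 7.84% and 8.90% of the TPM of all nuclear protein-coding genes. They held 587954 of 37377787 protein-coding expected counts in library 1 and 783043 of 44809299 in library 2, which is 1.57% and 1.75%. TPM divides counts by effective length, which is short for these genes. The median member had a mean of 156 TPM, against 0.28 TPM for all nuclear protein-coding genes. A level of 1 TPM or more in both libraries was reached by 60 of the 64, or 93.8%, against 42.4% of all genes, and a level of 100 TPM or more by 39, or 60.9%, against 1.62%. The 10 highest members held 55.7% of the summed TPM in library 1 and 59.0% in library 2.

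**Figure D1:**
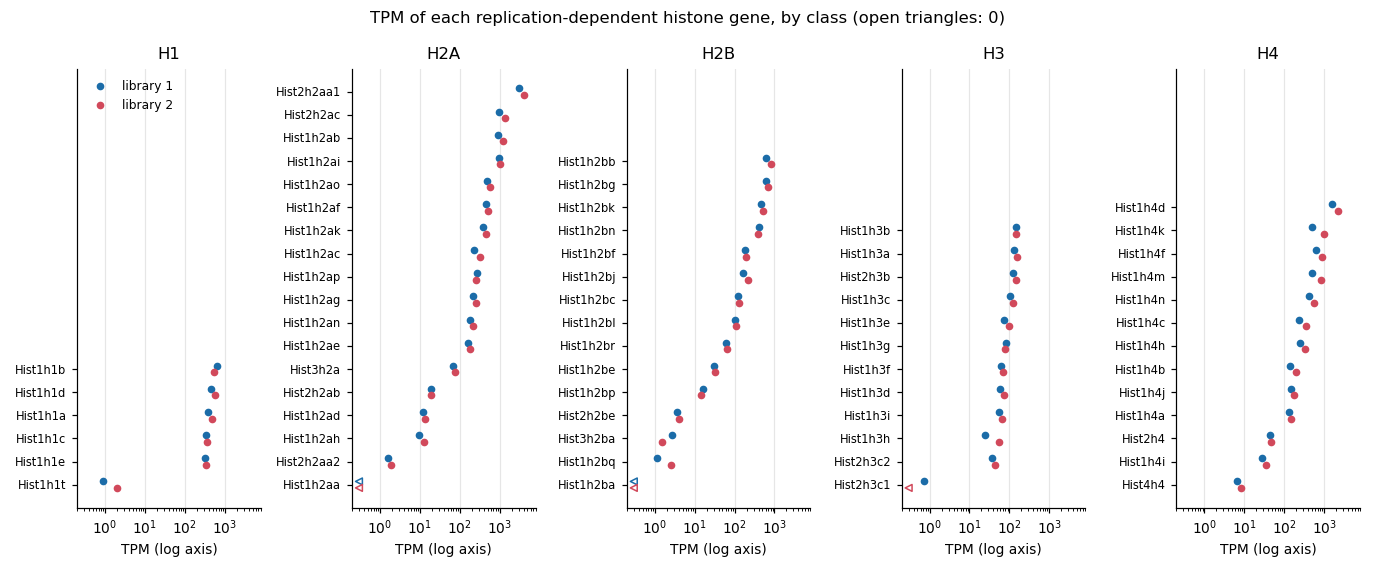
TPM (log axis) of each of the 64 histone genes with a row, in 5 panels by class and ordered by mean TPM, with library 1 in blue and library 2 in red and a listed 0 as an open triangle at the left edge. Within H2A, H2B and H4 the levels are widely spread, while 5 of the 6 H1 genes sit between 321 and 637 TPM.

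H2A genes formed the highest class, at 8454 in library 1 and 10470 TPM in library 2, a mean of 9462 ± 1426 TPM (SD, n = 2, as for all means below). H4 genes followed at 4572 and 6822 TPM, a mean of 5697 ± 1591. H2B genes with a row by gene ID summed to 2785 and 3188 TPM, a mean of 2986 ± 285. H1 genes summed to 2118 and 2295 TPM, a mean of 2207 ± 125. H3 genes were the lowest class, at 902 and 1065 TPM, a mean of 983 ± 115. No neighbours in this order overlapped between the libraries, but the order of H2B against the others depends on how its genes are found.

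The deposited tables file 3 transcripts with counts that M21 assigns to H2B members under other gene IDs. The largest is that of Hist2h2bb, which stands under the gene ID that M21 gives to Gm42743, a long noncoding RNA that overlaps it on the same strand. That transcript had 2925 in library 1 and 3556 TPM in library 2, a mean of 3240 ± 447, on 47380 and 60812 expected counts. It took nearly all of the TPM of its gene row, 98.87% in library 1, and was the highest H2B value in both libraries. Hist1h2bq was at 1.14 and 2.50 TPM in its own row and at 219 and 233 TPM through all of its transcripts. Hist1h2br was at 60.6 and 64.5 TPM in its own row and at 212 and 265 TPM through its transcripts. In the transcript of highest TPM of Hist1h2bq and in that of Hist1h2br, no window of 100 bases was unique to the gene. The split of reads between these genes is therefore uncertain. Counted this way, the H2B class summed to 6079 and 7176 TPM, a mean of 6627 ± 775, above H4 within each library although the ranges of the classes overlap, and all histone genes summed to 22125 and 27828 TPM.

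**Figure D2:**
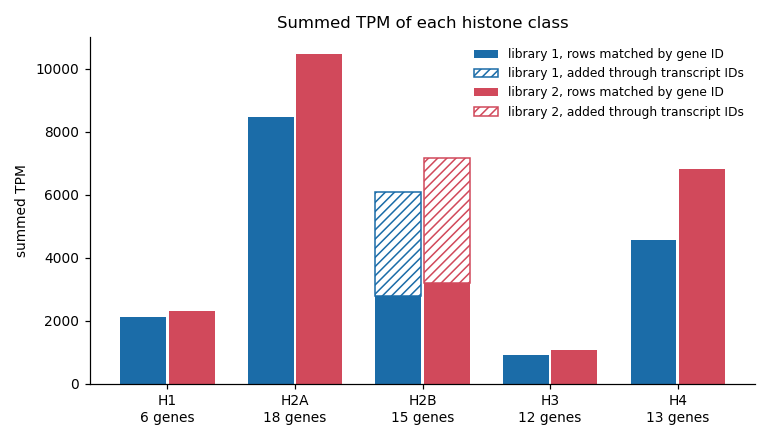
Bars give the summed TPM of each histone class in library 1 (blue) and library 2 (red), with rows matched by gene ID filled and the part reached only through transcript IDs hatched. With the hatched part H2B stands at 6079 and 7176 TPM, above H4 at 4572 and 6822 TPM within each library.

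As shares of the summed TPM, H2A held 44.4% ± 0.689, H4 26.4% ± 3.07, H2B 14.1% ± 1.00, H1 10.4% ± 1.14 and H3 4.63% ± 0.229 by gene ID. Through transcript IDs the H2B share was 26.6% ± 1.195, the H2A share 37.9% ± 0.413 and the H4 share 22.6% ± 2.72. In expected counts, which do not divide by length, H1 came second by gene ID with 22.7% of the histone counts in library 1 and 20.5% in library 2, and H4 held 16.1% and 18.3%. Through transcript IDs H2B had 132375 and 166263 counts, below H1 at 133569 in library 1 and above H1 at 160311 in library 2. The medians of the deposited model lengths were 743.5 bases for H1 and 430 for H4.

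TPM of these genes rests on the effective length, which is the model length less about the mean fragment. That subtraction was 223 bases in library 1 and 236 bases in library 2 for long genes. The median effective length of the members was 261 and 249 bases, against a median model length of 483.5. With counts divided by the model length in place of the effective one, H4 was at a mean of 3224 TPM and H2B by gene ID at 1993 TPM, below H1 at 2035. For 11 members the deposited model held the coding sequence alone, and for 18 of 64 it was shorter than in M21.

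Among the H2A genes, Hist2h2aa1 on chromosome 3 led with 3094 in library 1 and 4030 TPM in library 2, on 112428 and 160994 counts. It held 36.6% and 38.5% of the class. Its near-identical neighbour Hist2h2aa2, which encodes the same protein, had 1.58 and 1.95 TPM on 48 and 65 counts, and no window of 100 bases in its transcript was unique to it. Of the windows of Hist2h2aa1, 11.7% were unique. The split of reads between these copies is therefore uncertain, and their sum was 3095 and 4032 TPM. The deposited posterior SD of the count, an error from read assignment, was 50.2 and 52.5 for Hist2h2aa1 and 45.1 and 46.9 for Hist2h2aa2. It is small beside the counts of Hist2h2aa1 and large beside those of Hist2h2aa2.

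Hist2h2ac was next at 966 in library 1 and 1338 TPM in library 2, with 93.1% of its windows unique. Hist1h2ab, on chromosome 13, was at 916 and 1227 TPM and Hist1h2ai at 980 and 1000 TPM. Hist1h2ao followed at 488 and 565 TPM. The last 3 genes encode an H2A protein that 9 members share, and together those 9 members summed to 3464 in library 1 and 4040 TPM in library 2. The 18 H2A genes encode 9 protein sequences by translation of the annotated coding regions. Apart from Hist1h2aa and the low ones, the other H2A genes ran from 19.4 to 504 TPM. At the low end, Hist1h2ah had 9.39 and 13.1 TPM and Hist1h2ad 12.1 and 13.8 TPM.

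Hist1h2aa and Hist1h2ba, the H2A and H2B genes known from testis, lie next to each other on chromosome 13, in a head-to-head pair at the far end of the cluster. Both were listed with 0 counts in both libraries. A limit of 3 counts corresponds to 0.176 in library 1 and 0.166 TPM in library 2 for Hist1h2aa, and to 0.182 and 0.172 TPM for Hist1h2ba. The testis linker histone gene Hist1h1t had 0.91 and 1.97 TPM on 46 and 111 counts.

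Among H2B genes found by gene ID, Hist1h2bb was at 629 in library 1 and 808 TPM in library 2 and Hist1h2bg at 599 and 692 TPM. Hist1h2bk was at 463 and 521 TPM, Hist1h2bn at 408 and 393 TPM and Hist1h2bf at 179 and 199 TPM. Hist1h2bn and Hist1h2bf encode the same protein, and the others just named each encode a different one. With a single transcript taken per gene, the 18 H2B genes specify 11 protein sequences. These include that of the testis gene Hist1h2ba and a protein of 138 residues from a spliced transcript of Hist1h2bp. Hist2h2be and Hist1h2be have long annotated transcripts, of 2620 and 2480 bases, and had 3.68 and 4.10 TPM and 29.9 and 31.8 TPM.

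Apart from the testis gene Hist1h1t, the H1 genes were at like levels. Hist1h1b, which encodes the linker histone H1.5, was at 637 in library 1 and 550 TPM in library 2. Hist1h1d, for H1.3, was at 448 and 557 TPM, and Hist1h1a, for H1.1, at 381 and 485 TPM. Hist1h1c, for H1.2, was at 330 and 354 TPM and Hist1h1e, for H1.4, at 321 and 348 TPM. Of the H1 genes, Hist1h1b alone had more TPM in library 1, and no other gene shared a 100-base window with it.

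The H3 genes were low one by one as well as in sum. Hist1h3b led at 149 in library 1 and 148 TPM in library 2, followed by Hist1h3a at 130 and 157 TPM and Hist2h3b at 122 and 150 TPM. Hist1h3c had 106 and 124 TPM and Hist1h3e 74.8 and 98.1 TPM. The 12 genes encode 2 proteins that are 99.3% identical, known as H3.2 and H3.1. The protein of 8 genes summed to 610 in library 1 and 709 TPM in library 2, and that of 4 genes to 292 and 356 TPM. Hist1h3h, in the second set, had 23.9 and 55.6 TPM.

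All 13 H4 genes encode the same protein, yet their levels ran from a mean of 7.54 TPM for Hist4h4, the lone member on chromosome 6, to 1875 TPM for Hist1h4d. The Hist4h4 model was long, at 2879 bases, which lowers its TPM. In expected counts Hist4h4 had 1782 in library 1 and 2523 in library 2, above Hist1h4i at 1439 and 1953. Hist1h4d had 26734 and 40581 counts. Hist1h4d had 1542 in library 1 and 2208 TPM in library 2, and every 100-base window of its M21 transcript was unique, although the deposited model was shorter, at 393 bases. Hist1h4k had 508 and 1017 TPM, Hist1h4f 618 and 903 TPM, Hist1h4m 497 and 840 TPM and Hist1h4n 417 and 565 TPM. The others, apart from Hist4h4, ran from 28.5 to 347 TPM. The Hist1h4k model held 312 bases of coding sequence alone, and its effective length of 99.5 (library 1) and 88.9 bases (library 2) was the shortest of the 64.

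By position, the cluster on chromosome 13 held 54 members and 76.4% ± 0.586 of the summed TPM. The cluster on chromosome 3 held 10 members and 23.2% ± 0.619 by gene ID, which becomes 32.8% ± 0.309 when Hist2h2bb and the other transcripts are counted. The 2 members on chromosome 11 and the member on chromosome 6 held 0.344% ± 0.0324 and 0.0354% ± 0.000304. These are shares of TPM, and the models of Hist3h2a on chromosome 11 and of Hist4h4 were long, at 2146 and 2879 bases. In expected counts Hist3h2a had 12774 in library 1 and 16319 in library 2, and Hist4h4 had 1782 and 2523. On chromosome 13 the members fell into groups separated by long gaps. The 28 with a row on chr13:23531050-23764406 summed to 8394 in library 1 and 10744 TPM in library 2, and the 17 on chr13:21715763-21837530 to 5189 and 6345 TPM. The 5 on chr13:22035164-22043676 summed to 886 and 1031 TPM. All positions are on mm10.

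H2A and H2B genes often start head to head and so share an upstream region. There were 12 such pairs with starts within 500 bases, at 175 to 305 bases apart, of which 11 had counts. Partners were far from equal in some pairs and near equal in others. Hist1h2ak stood at 0.942 times Hist1h2bn in library 1 and 1.14 times in library 2, and Hist1h2ag at 1.33 and 1.18 times Hist1h2bj. Hist1h2ap stood at 4.55 and 3.90 times Hist1h2br by gene ID, and at 1.30 and 0.948 times through transcript IDs. In both libraries H2A was the higher partner of 7 pairs and H2B of 3 by gene ID, and through transcript IDs H2A was the higher of 6 and H2B of 3. Hist1h2ah stood at 0.0203 times Hist1h2bk in library 1 and 0.0252 times in library 2, and the overlapping windows of both genes hold the octamer, as printed above for Hist1h2bk. Hist1h2ad stood at 0.0675 and 0.0693 times Hist1h2bf. In the other direction, Hist1h2ai was 9.32 and 8.94 times Hist1h2bl, and Hist2h2ac was 262 and 326 times Hist2h2be, whose annotated transcript is 2620 bases long. The gap was smaller in expected counts, at 28732 and 43452 for Hist2h2ac against 884 and 1114 for Hist2h2be. The pair Hist1h2ao and Hist1h2bq had a ratio of 428 and 226 by gene ID but of 2.23 and 2.42 through transcript IDs. Ratios through transcript IDs for Hist1h2bq and Hist1h2br rest on an uncertain split of reads between these genes. The H2A partners Hist1h2ap, Hist1h2ao, Hist1h2ah, Hist1h2ad and Hist1h2ai are among the members with the largest error from read assignment, given below. Their ratios carry that error too.

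**Figure D3:**
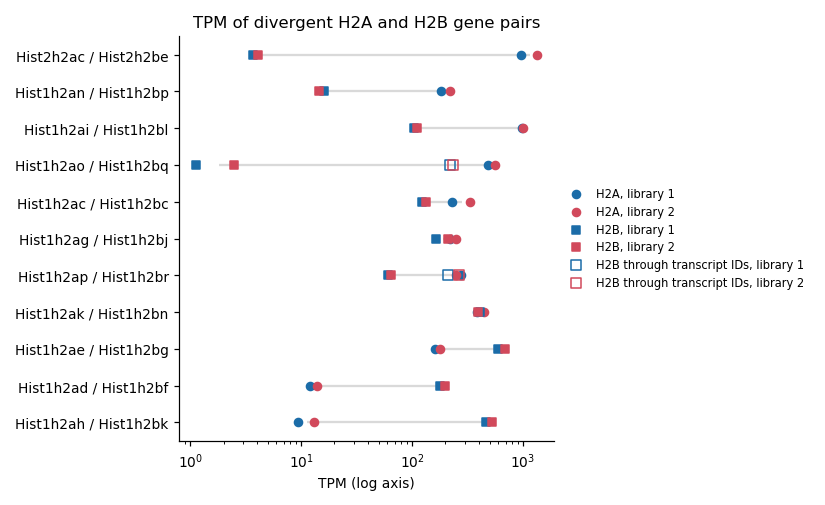
TPM (log axis) of the partners of 11 divergent pairs, with H2A as circles, H2B as squares, library 1 in blue and library 2 in red, and open squares for H2B values through transcript IDs. The pairs run from Hist1h2ah, far below Hist1h2bk, at the bottom to Hist2h2ac, far above Hist2h2be, at the top.

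Near-identical coding sequences limit what can be said of single genes. In addition, 24 of the 67 members overlap another annotated gene, 7 on the same strand and 21 on the opposite strand, and values of those members are uncertain to that extent. Pairs of equal length had a median identity of 96.7% over the coding bases in H2A, 97.2% in H2B, 97.2% in H3 and 93.9% in H4. The deposited posterior SD of the count, divided by the square root of the count, measures the error from read assignment against counting error. Of 58 members averaging at least 100 counts, 13 had a ratio above 1. The median ratio was 1.11 for 13 members with under 25% unique windows, 0.387 for 26 members with 25% to under 75%, and 0.0583 for 19 members with 75% or more. Windows were counted on M21 transcripts, while the posterior SD rests on the deposited models, which differ for some members. Hist1h2ac had 91.9% unique windows over 2482 bases but a model of 476 bases, and a ratio of 1.07. For Hist1h2bq and Hist1h2br the windows are those of a transcript filed outside the row that gave the SD. Hist1h2ap (4.16), Hist1h2ao (3.27), Hist1h2ah (3.12), Hist1h2ad (1.92), Hist1h2ai (1.81) and Hist1h2bq (1.32) had the highest ratios. The deposited interval for Hist1h2ah ran from 5.90 to 14.3 TPM in library 1 and from 8.49 to 19.0 TPM in library 2, while that of Hist1h1b ran from 623 to 637 and from 538 to 551 TPM. These intervals belong to the posterior mean, not to the listed TPM.

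**Figure D4:**
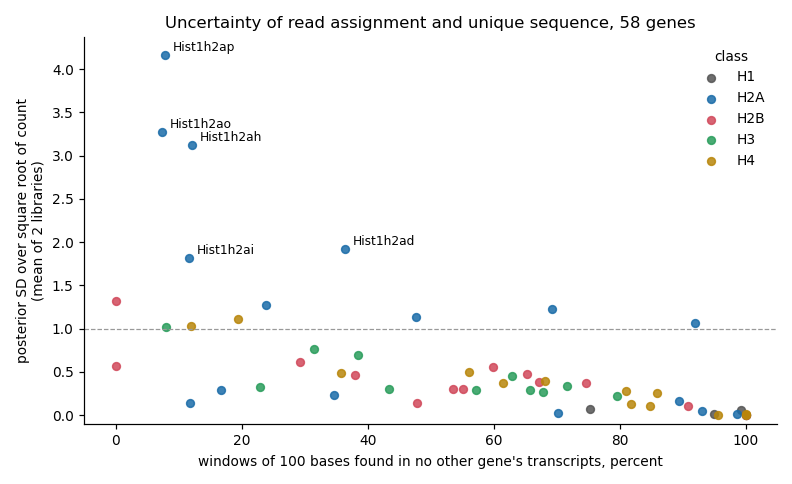
For 58 histone genes, the percent of 100-base windows found in no other gene's transcripts (x axis) against the posterior SD of the count over its square root, a ratio averaged over both libraries (y axis), with colour for class and a dashed line at 1. Windows are those of the M21 transcript, which differs from the deposited model for some genes. H2A genes with few unique windows reach 4.16, and genes with all windows unique lie near 0.

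The libraries were compared with each other gene by gene, as replicates of a single group. Counts were scaled by TMM over nuclear protein-coding genes, and a gene was called at an adjusted p of 0.05 or less in an exact binomial test with a ratio of at least 2-fold. With 1 library on each side the test covers counting error only, and it compares these libraries, not conditions. Of 12081 genes tested, 1156 were called, or 9.57%, and of 62 histone genes tested 4 were called, or 6.45%. Among genes averaging at least 100 counts, 2 of 58 histone genes were called, or 3.45%, and 211 of 10175 of all genes, or 2.07%. These 2 histone genes were Hist1h2bq and Hist1h3h, and Hist1h2bq was not called through transcript IDs. The order of these shares therefore rests on few genes.

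Hist1h1t had 46 counts in library 1 and 111 in library 2, a log2 ratio of -1.02 (exact binomial test, adjusted p = 7.015e-05). Hist1h3h had 456 and 1130 counts, a log2 ratio of -1.06 (exact binomial test, adjusted p = 5.55e-42), with 8.01% of its windows unique. Hist1h2bq had 206 and 537 counts, a log2 ratio of -1.13 (exact binomial test, adjusted p = 1.366e-22), but 3881 and 4658 counts through transcript IDs, a log2 ratio of -0.02 (exact binomial test, adjusted p = 0.6573). Hist2h3c1 had 114 counts in library 1 and 0 in library 2 and was called (exact binomial test, adjusted p = 6.728e-38). Its deposited posterior mean counts were 75.2 and 22.2, a log2 ratio of 1.99, and no window of it was unique, so the size of this difference is uncertain. With Hist2h3c2, which encodes the same protein, it summed to 3012 and 3850 counts.

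Below the 2-fold mark the classes moved unequally. The summed counts gave a log2 ratio of library 1 over library 2 of -0.35 for H4, -0.21 for H2A, -0.12 for H3, -0.07 for H2B and -0.02 for H1. The counting interval for H4 ran from -0.36 to -0.34. Over 10117 other nuclear protein-coding genes that averaged at least 100 counts, the median was -0.0025 and the 5th and 95th percentiles were -0.51 and 0.57. All 13 H4 genes were below 0, from -0.78 for Hist1h4k and -0.60 for Hist1h4m to -0.05 for Hist1h4a, and none was called. Hist1h4f was at -0.39 and Hist1h2ac at -0.41. Of all 62 members tested, 51 were below 0, with a median of -0.11. Among those averaging at least 100 counts, 49 of 58 members were below 0, against 50.4% of other genes of any length. By length, the share of other genes was 50% under 400 bases, 74.5% at 400 to under 500 bases and 70.2% at 500 to under 700 bases.

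The ratio also differed with transcript length among other genes. The 16 genes under 400 bases had a median log2 ratio of -0.014. Other genes of 400 to under 500 bases had a median log2 ratio of -0.17 over 55 genes, those of 500 to under 700 bases -0.17 over 205 genes, and those of 4000 bases or more 0.09 over 2172 genes. The stated size range starts at 221 nucleotides in library 1 and at 200 in library 2. Markers of other cells also differed between the libraries. All 5 monocyte markers were below 0, with a median log2 ratio of -0.19, and 1 of 8 neutrophil markers was below 0, with a median of 0.20, and none of either list was called. Erythroid markers summed to 111.7 in library 1 and 53.8 TPM in library 2, with 4 of 6 called higher in library 1. T and NK cell markers summed to 18.3 and 11.8 TPM, with 2 of 4 called higher in library 1, and B cell markers to 3.26 and 4.33 TPM with none of 2 tested called. The part of length, size range and these cell types in the histone values was not tested. On the TPM scale H4 was at 4572 in library 1 and 6822 TPM in library 2. Rescaled to nuclear protein-coding genes alone, it was at 19047 and 25456 TPM.

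**Figure D5:**
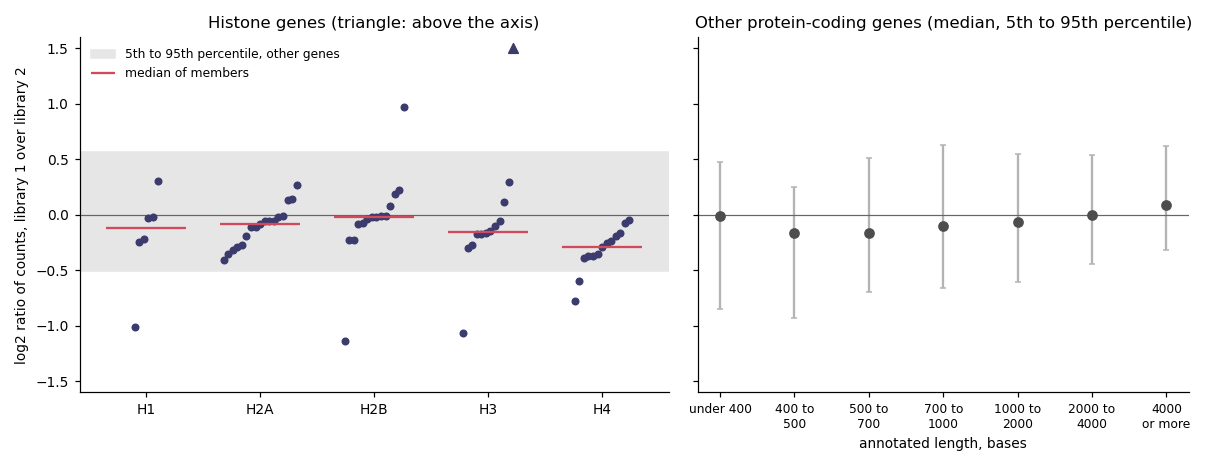
Left, the log2 ratio of scaled counts in library 1 over library 2 for 62 histone genes by class, with the class median as a red line, the 5th to 95th percentile of other genes as a grey band, and Hist2h3c1 as a triangle above the axis. Right, the median and 5th to 95th percentile of other protein-coding genes by annotated length. All H4 genes lie below 0. The medians of other genes were -0.17 at 400 to under 500 and at 500 to under 700 bases, but -0.014 under 400 bases.

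Histone variants encoded outside the replication-dependent set, mostly from polyadenylated mRNAs made throughout the cell cycle, gave a comparison within each class. H2afx is an exception, known to give a stem-loop mRNA as well as a polyadenylated one. Of 16 listed genes, 15 had a row, 9 reached 1 TPM in each library and 5 were listed at 0 in both, namely H1fx, H1fnt, H1foo, H2afb1 and H2bfm. H3f3a and H3f3b, which encode H3.3, were at 666 in library 1 and 914 TPM in library 2 and at 196 and 200 TPM. Both were above every replication-dependent H3 gene in each library, and the centromere variant Cenpa was at 28.7 and 31.6 TPM. The replication-dependent H3 sum was 1.01 times the sum of these 3 variants in library 1 and 0.930 times in library 2. In expected counts, which do not divide by length, it was 0.379 and 0.358 times.

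In sum, the H2A variants were low beside their class. H2afz, for H2A.Z, was at 323 in library 1 and 367 TPM in library 2, and H2afv, for a second H2A.Z, at 45.6 and 47.6 TPM. H2afz was above the median replication-dependent H2A gene, which had 224 and 251 TPM. H2afy, for macroH2A1, was at 165 and 184 TPM, H2afx, the DNA damage variant, at 59.3 and 72.1 TPM, H2afj at 7.33 and 9.26 TPM and H2afy2 at 0.30 and 0.20 TPM. The replication-dependent H2A sum was 14.1 and 15.4 times the sum of these 6 in TPM, and 5.02 and 5.45 times in expected counts. For H1, the variant H1f0 was at 19.3 and 21.9 TPM. The replication-dependent sum was 110 and 105 times it in TPM, and 33.6 and 31.3 times in expected counts. None of the 10 variants with enough counts was called between the libraries in the exact binomial test, and 8 of the 10 were below 0, with a median of -0.08.

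Genes that act on histone mRNA were present. Of 21 genes for its 3 prime end processing with a row, 19 reached 1 TPM in each library. The list also holds Mbnl1, a splicing regulator that is not known as part of this machinery, and its highest value was that gene's, at 278 in library 1 and 295 TPM in library 2. Snrpe was at 56.7 and 85.4 TPM and Snrpb at 38.2 and 52.4 TPM, both of which encode proteins of the Sm ring, and Slbp, the stem-loop binding protein, was at 59.1 and 71.9 TPM. Zfp473, a zinc finger protein of the processing complex, was called, with 67 and 187 counts and a log2 ratio of -1.23 (exact binomial test, adjusted p = 1.316e-09). Of 8 decay genes with a row, 7 reached 1 TPM in each library and none was called. Lsm4 had 19.8 and 34.99 TPM, Xrn1, an exonuclease, 13.9 and 11.3 TPM, Eri1, the exonuclease that trims the stem-loop, 11.5 and 12.3 TPM, and Exosc10, of the nuclear exosome, 10.7 and 11.6 TPM.

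Of 18 genes for histone chaperones and chromatin assembly, 17 reached 1 TPM in each library and none was called. Nap1l1, a chaperone of H2A and H2B, was at 91.7 in library 1 and 81.6 TPM in library 2. Nasp, a chaperone of H1 and H3, was at 55.9 and 64.8 TPM, Ssrp1, of the FACT complex, at 55.3 and 62.4 TPM and Hjurp, the chaperone of Cenpa, at 46.8 and 47.5 TPM. All 20 S phase genes reached 1 TPM in each library and none was called. Pcna, the sliding clamp of replication, was at 123 and 133 TPM, Ccna2, for cyclin A2, at 61.5 and 71.2 TPM, Mcm6, of the replicative helicase, at 50.8 and 59.1 TPM and Rrm1, of ribonucleotide reductase, at 47.5 and 54.2 TPM. Their median log2 ratio was -0.08, with 14 of 20 below 0. The lists hold different numbers of genes, and no relation to the histone levels can be computed over 2 libraries.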

How the data were processed

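Total RNA-seq tables of 2 libraries were used. Reads were mapped to mm10 with GENCODE M4 models, per the file headers of text deposited with each library. Aligner and quantifier: not given in the sources used here. Deposited tables hold expected counts (estimated counts per gene or transcript, not whole numbers), TPM over all rows, the authors' posterior means with an SD and an interval of unstated level, effective lengths in bases, and the authors' percent of a gene's TPM in each transcript. Depth was 42703213 expected counts in library 1 and 50532821 in library 2. FPKM values, which the authors deposited per 1000 bases of effective length, were not used. The deposited interval bounds of TPM are a score with no stated level. The deposited counts were rounded to whole numbers for tests only. Limits of 3 counts and intervals cover counting error only, since PCR copies of a molecule could not be told from new molecules.

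Gene IDs without version were matched to GENCODE M21 on the same build (42462 of 43346 mouse IDs), and members summed by class and cluster with Python 3.11.15 and pandas 2.3.3. Means have an SD over 2 libraries, which come from the same donor entry, so the spread may be technical. Libraries were compared with edgeR 4.0.16 (TMM, exact binomial test, Benjamini-Hochberg adjustment over all genes averaging at least 10 counts, 0.5 counts added in log2 ratios). The procedure was tested on simulated counts that held counting error alone. That test cannot show how the procedure does where libraries differ by more than counting error. DESeq2 1.42.0 size factors were an alternative. The members and gene lists were chosen with earlier results of these data known. Named genes are up to 5 of highest mean TPM per class, members at 0, up to 6 each with the largest library ratio or assignment error, all variants, up to 4 of highest TPM per list, and divergent pairs; Hist2h2bb, Hist1h2br, Hist2h2aa2, Hist1h1t, Hist2h3c1, Hist2h3c2, Hist4h4, Hist1h2be, Hist1h4a, Zfp473 and the genes named for the label check, other than those, were chosen after their values were seen. Counting members through transcript IDs was added after seeing the data.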

Additional observations from a re-analysis of the deposited data

Results flagged for a closer look

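Reads were also assigned to histone genes outside the comparisons by gene ID, at more than 3 counts in each library. There are no control samples to set them against. Hist2h2bb, reached through its transcript, had a mean of 3240.46 TPM. The processed pseudogene Hist3h2bb-ps on chr11:58954048-58954512 had a mean of 19.05 TPM, on 407 counts in library 1 and 562 in library 2. The processed pseudogene Hist1h2al on chr13:51202727-51203065 had a mean of 5.50 TPM, on 67.1 and 114 counts. The unprocessed pseudogene Hist1h2aj on chr13:21721457-21721808 had a mean of 0.535 TPM, on 11.6 and 3.01 counts. How many of these reads came from near-identical coding members was not tested.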

How the results depend on the processing

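No paired analysis was possible because the libraries form a single group with no second group to pair with. Summed TPM and shares stayed within their SD with posterior mean TPM and with members under 1 TPM left out, and DESeq2 size factors and posterior mean counts moved no class ratio or count beyond its limit. Leaving out either library kept every class, cluster and total value within its SD, as it must with 2 libraries. The cause of the changes below was not tested except where a setting's construction gives it.

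With the model length in place of the effective length, summed TPM averaged 2035 for H1, 6661 for H2A, 1993 for H2B, 747 for H3, 3224 for H4 and 14659 for all members. The shares were then 13.96% for H1, 45.4% for H2A, 5.11% for H3 and 21.8% for H4, and 73.05%, 26.3%, 0.575% and 0.0617% for the Hist1, Hist2, Hist3 and Hist4 clusters. Rescaled to protein-coding genes only, the sums were 8694 for H1, 37144 for H2A, 11748 for H2B, 3865 for H3, 22251.5 for H4 and 83702.5 for all. Without the highest member of each class, they were 1613 for H1, 5900.25 for H2A, 2268 for H2B, 835 for H3, 3822 for H4 and 14438 for all. The shares were then 40.98% for H2A, 15.8% for H2B and 5.79% for H3, and 89.8%, 9.65%, 0.508% and 0.0522% for the clusters in the same order.

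Through transcript IDs, an alternative chosen after seeing the data, the H2B sum was 6627 TPM and 149319 counts and the total 24976 TPM. The shares were then 8.91% for H1, 37.9% for H2A, 26.6% for H2B, 3.95% for H3 and 22.6% for H4, and 66.9%, 32.8%, 0.293% and 0.0302% for the clusters. The log2 ratio of library 1 over library 2 was -0.082 for H2B and -0.162 for all. With total count scaling it was -0.0018 for H1, -0.191 for H2A, -0.0504 for H2B, -0.335 for H4 and -0.152 for all, and no class changed direction.

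In the exact binomial test, 2 of 58 histone genes (3.45%) and 211 of 10175 of all genes (2.07%) were called among genes averaging at least 100 counts. A 1.5-fold mark called 7 of 62 histone genes (11.3%) and 1989 of 12081 of all genes (16.5%). With no filter on low counts, 4 of 62 histone genes (6.45%) and 1814 of 13443 of all genes (13.5%) were called. Of 13 members with under 25% unique windows, 9 had an assignment error above counting error.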
